A study of Mus musculus with 9 samples.

Results

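Titin, the myomesins and their scaffold partners were followed in the hearts of wild-type mice, of mice homozygous for a premature stop codon in cardiac myosin-binding protein C (Mybpc3), and of such mutants given a base editor. The genes were titin (Ttn), the cytoskeletal linker Obsl1, myomesins 1, 2 and 3 (Myom1, Myom2, Myom3), nebulette (Nebl), the striated muscle kinase Speg and telethonin (Tcap). They were taken by symbol, and all 8 were found among the 15779 genes of the deposited tables and tested in each comparison. Nebulin (Neb) was not among the 8 and is described with the related genes.

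Polyadenylated RNA from adult C57BL/6J hearts was sequenced in 9 libraries, 3 in each of 3 groups. The first group was wild-type mice given saline. The second was mice homozygous for the Mybpc3 R946X allele, a premature stop codon, given saline. The third was mice of the same homozygous genotype given a high dose of exABE8e, an adenine base editor (an enzyme that turns A into G at a guided site); the labels do not define the name further. The series describes delivery by the adeno-associated virus AAV9 with expression of the editor directed to cardiomyocytes, so other heart cells are not its stated target. Neither the sex nor the exact age of the mice was given, and nothing says more of the animals than that the libraries are replicates. Each library is called a heart below, though no label says that it came from a single animal. The p-values therefore measure the spread between these libraries.

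The sarcomere is the contractile unit of striated muscle, bounded by Z-discs and centred on the M-band. Titin is a giant protein that runs from the Z-disc to the M-band. Its I-band part acts as a spring, and its A-band part lies along the thick filament, where myosin-binding protein C also sits. At the M-band, myomesins crosslink thick filaments, and the protein of Obsl1 connects titin and myomesin. At the Z-disc, telethonin caps the end of titin, and nebulette binds thin filaments as the cardiac relative of nebulin. Speg is a kinase of the myosin light chain kinase family found at the junctional membranes of the sarcoplasmic reticulum.

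The targeted gene followed the labels. Wild-type hearts had Mybpc3 values of 1510, 1795 and 2039, saline mutants 133, 142 and 186, and treated mutants 1024, 1374 and 1332. Each library sums to between 999152 and 999382, so values are scaled to a common total. Read depth is unknown, and counting error could not be given. The mitochondrial share was 17.0% to 24.1% of each library. Summed levels of 8 ventricular cardiomyocyte markers lay between 48033 and 58399 in all 9 libraries, none of the 8 being at 0 in any group. The sum hides single markers that differed. In saline mutants against wild type the groups did not overlap for Tnnt2 (means 3974 and 4982), Tnni3 (2224 and 3145) and Pln (1119 and 1493). These were lower, and Actc1 was higher without overlap (12940 and 10360). The groups of 21.6% of all genes did not overlap there. None of the 8 passed the threshold given below in any comparison. Xist, the transcript of the inactive X chromosome, was above 0 in 3 libraries: wild type replicate 1 (119), saline mutant replicate 3 (351) and treated replicate 1 (39).

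Of the 8 scaffold genes, Myom3 rose in saline mutants and no other was called, 1 of 8 where 7.71% of all genes tested were called and 4.56% rose. Its level was the lowest of the 8 in every heart. Titin, Obsl1, myomesin 1 and Speg also had higher means in both mutant groups than in wild type, and none of these differences was called. Between treated and saline mutants limma called 0 of 8, where 0.0293% of all genes were called, and Tcap was the only one of the 8 whose groups did not overlap. Groups were compared with limma on log2(value + 1), a scale that understates fold changes of low genes. Calls needed a p-value under 0.05 after Benjamini-Hochberg adjustment over all genes tested.

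**Figure D1:**
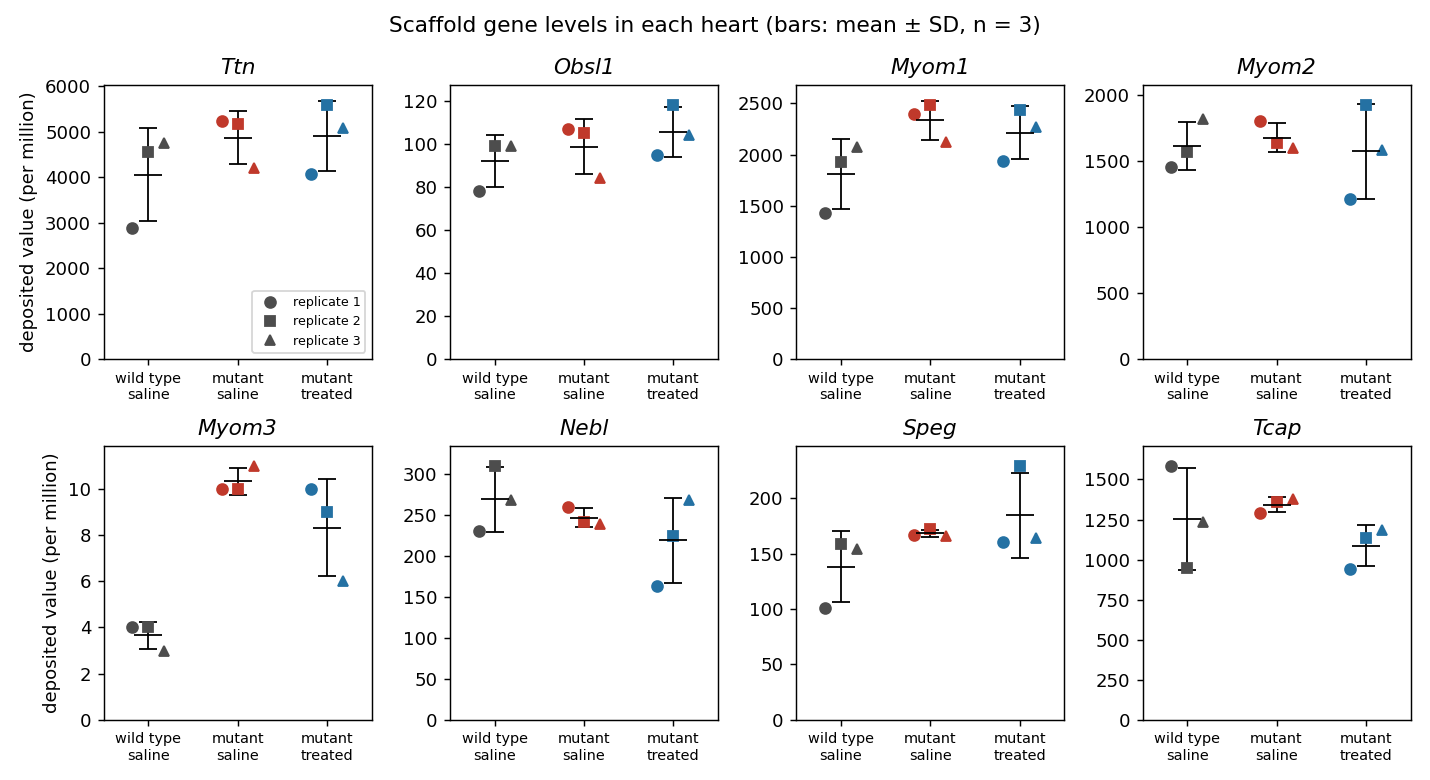
Deposited value of each scaffold gene in each of the 9 hearts, by group, with the group mean ± SD (n = 3). Values are scaled to the library total (linear axis from 0). Symbols mark the replicate number, which was not taken to pair hearts. Myom3 values were 3 to 4 in wild type and 10 to 11 in saline mutants, whereas the groups of Ttn, Obsl1, Myom2 and Nebl overlapped throughout.

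Ttn lies on chromosome 2 from 76703980 to 76982547 on the minus strand (GRCm38, the assembly also called mm10), and its longest annotated transcript has 106824 bases in 347 exons. Its values were 2873, 4546 and 4746 in wild type, 5239, 5179 and 4198 in saline mutants, and after treatment 4063, 5583 and 5076. Wild type replicate 1 was the lowest of the 9 hearts, and the ranges of the 3 groups overlapped. The log2 fold change between saline mutant and wild type was 0.29 (SE 0.205, 95% interval -0.17 to 0.76, limma adjusted p 0.492). Without wild type replicate 1 it was 0.06 (limma adjusted p 0.915). Treated hearts differed from saline mutants by 0.01 (95% interval -0.37 to 0.38, limma adjusted p 1). This interval does not show that the levels were equal. One row stands for the whole gene, so the stiff and compliant titin isoforms, which arise by splicing, could not be separated.

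The splicing regulators of titin gave no call either. Rbm20, which promotes skipping of titin spring exons, was 169, 214 and 237 in wild type, 228, 228 and 233 in saline mutants, and after treatment 170, 265 and 251. Rbm24, another splicing factor of striated muscle, was 191, 192 and 209, then 199, 199 and 202, then 232, 284 and 208 in the same order. Saline mutants lay within the wild-type range for both genes.

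At the M-band, Myom1 values were 1428, 1927 and 2074 in wild type, 2395, 2483 and 2124 in saline mutants, and after treatment 1933, 2438 and 2273. The saline mutants all lay above the wild-type hearts, and the treated hearts overlapped both groups. Saline mutants differed from wild type by 0.38 on the log2 scale (SE 0.156, 95% interval 0.03 to 0.74). Its unadjusted p of 0.0379 became a limma adjusted p of 0.216, above the threshold. Without wild type replicate 1 the difference was 0.22. In treated mutants against wild type it was 0.30 (95% interval -0.08 to 0.68, limma adjusted p 0.507), and 0.14 without wild type replicate 1.

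Myom2, the myomesin of adult fast muscle that the adult mouse heart also uses, had values of 1454, 1571 and 1816 in wild type. Saline mutants had 1799, 1633 and 1596, and treated mutants 1209, 1922 and 1586. All 3 groups overlapped, and treated hearts held both the lowest and the highest value. Saline mutants differed from wild type by 0.06 on the log2 scale (95% interval -0.22 to 0.33, limma adjusted p 0.848), and its sign depended on how libraries were scaled: it was -0.01 with median-of-ratios factors and -0.04 with upper-quartile factors.

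Myom3, in other muscles a myomesin of intermediate fibres, was barely detected in wild-type hearts, with values of 4, 4 and 3. It was 10, 10 and 11 in saline mutants, and after treatment 10, 9 and 6. Neither mutant group overlapped wild type, and treated replicates 2 and 3 lay between wild type and the saline mutants. The log2 fold change was 1.29 in saline mutants against wild type (SE 0.16, 95% interval 0.92 to 1.65, limma adjusted p 0.00188). In treated mutants against wild type it was 0.98 (95% interval 0.51 to 1.46), with a limma adjusted p of 0.094, above the threshold. Treated and saline mutants differed by -0.31 (95% interval -0.74 to 0.13, limma adjusted p 0.698). On the linear scale Myom3 was at 282% ± 15.8 of the wild-type mean in saline mutants and at 227% ± 56.8 in treated mutants (SD, n = 3). Values this low are coarse, since the deposited numbers were rounded to whole units.

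The adjusted p of Myom3 in saline mutants ranged from 0.000382 to 0.0249 over the 17 alternative fits that tested it, and it was called in each. The authors' deposited table gives Myom3 a log2 fold change of 1.42 (SE 0.676) there, and the authors' selected list of 689 genes holds it, the only one of the 8. The p-value in the authors' deposited table, 0.0355, is unadjusted and became 0.664 after Benjamini-Hochberg adjustment, above the threshold.

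Skeletal muscle markers were near the floor of the scale, as Myom3 was, and a part of skeletal muscle in the Myom3 values was not tested. Of 9 markers, 5 were analysed, and their sum was 1 to 3 in each saline group and 5 to 6 in treated hearts. Myh4, a fast skeletal myosin, was listed at 0 in every saline heart and at 1 in each treated heart. Whole-heart RNA cannot tell more cells of a type apart from more RNA per cell.

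**Figure D2:**
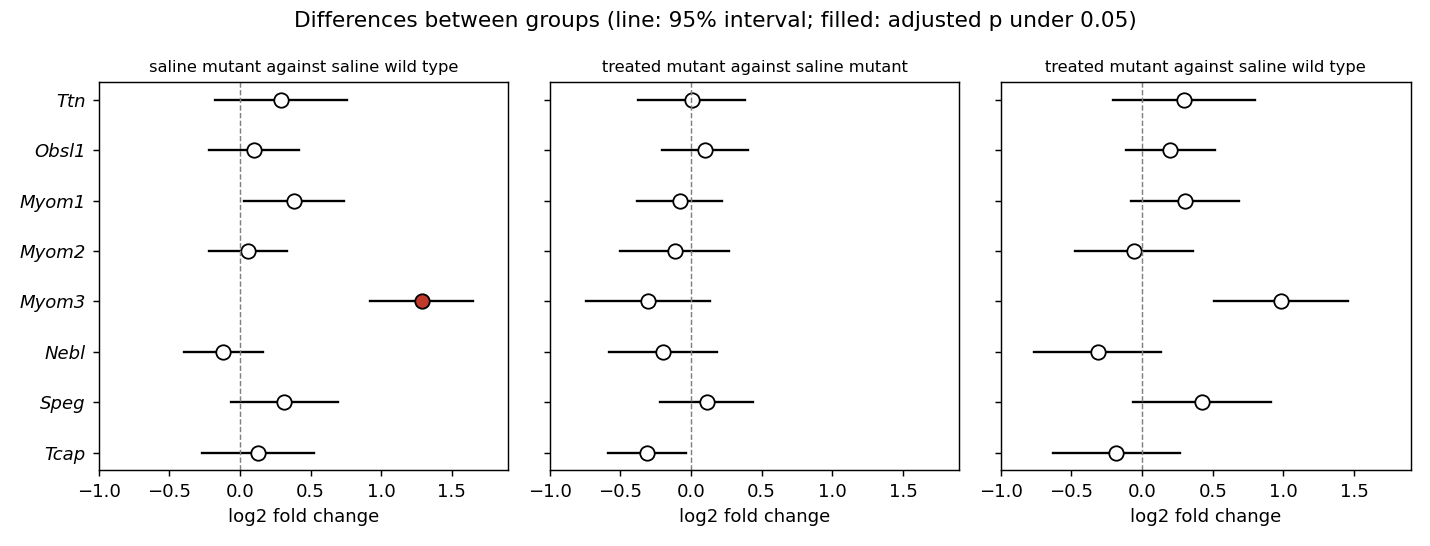
Log2 fold change of each scaffold gene in the 3 comparisons, with its 95% interval from limma; a filled point has an adjusted p under 0.05. The sole filled point is Myom3 in saline mutants against wild type (1.29), while the interval of Myom1 there starts just above 0 (0.03) and that of Tcap ends just below 0 in treated against saline mutants (-0.03).

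The ratio between 2 genes of the same library does not depend on how libraries are scaled, so the paralogs were also set against each other. The longest transcripts of Myom1 and Myom2 have 5648 and 5075 bases. Their wild-type means of 1810 and 1614 were close as deposited, and also per kilobase of transcript (320 and 318). Myom3, at 5575 bases, was 494-fold below Myom1. The Myom2 to Myom1 ratio was 1.02, 0.815 and 0.876 in wild type, 0.751, 0.658 and 0.751 in saline mutants, and after treatment 0.625, 0.788 and 0.698. All 6 mutant hearts lay below the 3 wild-type hearts. On the log2 scale the difference was -0.32 for saline mutants and -0.36 for treated mutants against the same wild-type hearts. The exact two-sided permutation test gave p = 0.1 for each, the smallest that 3 against 3 allows, and 0.257 after adjustment over 18 ratio results. It also gave 0.1 for Myom3 to Myom1 (0.90) and Obsl1 to Ttn (-0.19) in saline mutants against wild type. In treated against saline mutants Obsl1 to Ttn (0.10) and Tcap to Ttn (-0.31) had this p too. So had Nebl to Ttn in treated mutants against wild type (-0.61). How often other gene pairs reach it was not computed. None of the 18 could pass a threshold of 0.05.

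The Myom3 to Myom1 ratio was 0.0028, 0.00208 and 0.00145 in wild type and 0.00418, 0.00403 and 0.00518 in saline mutants. It was 0.00517, 0.00369 and 0.00264 in treated mutants, where the lowest heart fell within the wild-type range.

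**Figure D3:**
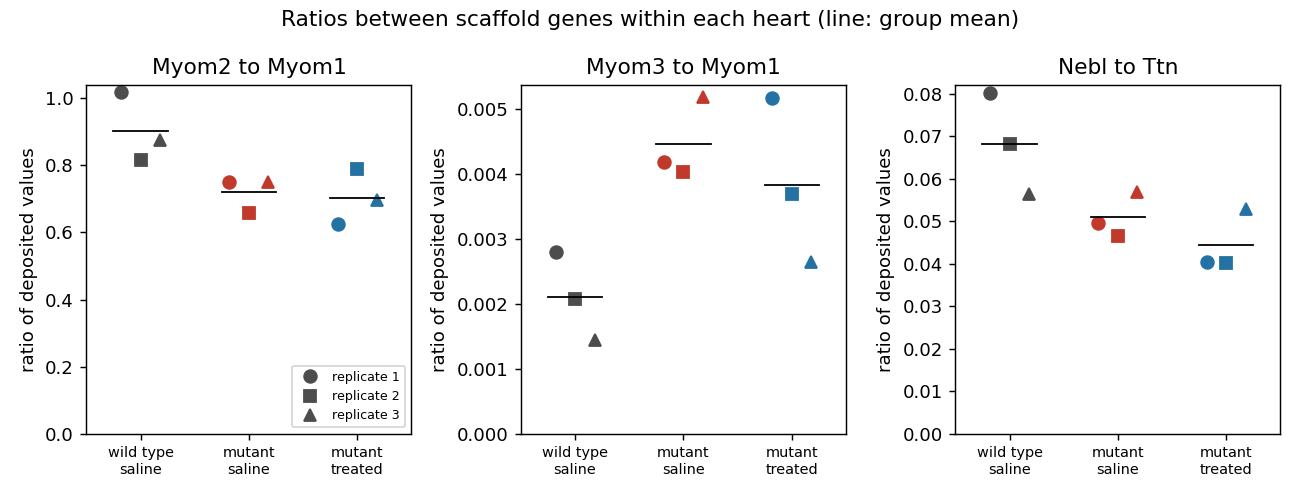
Ratio of the deposited values of 2 genes within each heart (linear axes from 0), by group, with the group mean as a line. The Myom2 to Myom1 ratio was 0.815 to 1.02 in wild type and 0.625 to 0.788 in the 6 mutant hearts, and the Nebl to Ttn ratio was 0.0565 to 0.0801 in wild type and 0.0403 to 0.0528 in treated hearts.

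The M-band linker Obsl1 had values of 78, 99 and 99 in wild type, 107, 105 and 84 in saline mutants, and after treatment 95, 118 and 104. The groups overlapped in every comparison. The log2 fold change was 0.10 in saline mutants against wild type (95% interval -0.22 to 0.42, limma adjusted p 0.752) and 0.20 in treated mutants against wild type (95% interval -0.11 to 0.51, limma adjusted p 0.593). Without wild type replicate 1 the former was -0.01.

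Speg values were 101, 159 and 154 in wild type, 167, 172 and 166 in saline mutants, and after treatment 160, 229 and 164. The 3 saline mutants were close together, with an SD of 3.21, and all 6 mutant hearts lay above the wild-type hearts, though by as little as 1 unit. The log2 fold changes against wild type were 0.31 in saline mutants (95% interval -0.06 to 0.69, limma adjusted p 0.35) and 0.42 in treated mutants (95% interval -0.07 to 0.92, limma adjusted p 0.472). Without wild type replicate 1 these were 0.10 and 0.22.

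At the Z-disc, Nebl was the one scaffold gene with a lower mean in saline mutants than in wild type. Its values were 230, 310 and 268 in wild type, 260, 241 and 239 in saline mutants, and after treatment 164, 225 and 268. Treated replicate 1 was the lowest heart, and treated replicate 3 equalled a wild-type value. The log2 fold changes against wild type were -0.12 in saline mutants (95% interval -0.39 to 0.16, limma adjusted p 0.679) and -0.32 in treated mutants (95% interval -0.77 to 0.13, limma adjusted p 0.561). The former was -0.22 without wild type replicate 1 and -0.010 without wild type replicate 2. The latter was -0.21 without wild type replicate 2, -0.12 without treated replicate 1 and -0.47 without treated replicate 3. Relative to Ttn, Nebl was 0.0801, 0.0682 and 0.0565 in wild type, 0.0496, 0.0465 and 0.0569 in saline mutants, and after treatment 0.0404, 0.0403 and 0.0528. The treated hearts all lay below the wild-type hearts on this ratio (log2 difference -0.61, exact permutation p 0.1, adjusted 0.257). The gene also encodes a shorter LIM-domain protein from another start, which the single row does not separate.

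Tcap, a short transcript of 948 bases on chromosome 11 (98383811 to 98384953), had its highest value in wild type replicate 1, where 6 of the other 7 were lowest in their group. Its values were 1584, 947 and 1232 in wild type, 1288, 1361 and 1375 in saline mutants, and after treatment 941, 1136 and 1184. Every treated heart was below every saline mutant, while the wild-type hearts, from 947 to 1584, overlapped both groups. With treatment the log2 difference was -0.31 (SE 0.121, 95% interval -0.58 to -0.03). Its unadjusted p was 0.0316 and its limma adjusted p 0.56. Against wild type, treated mutants differed by -0.18 (95% interval -0.63 to 0.27, limma adjusted p 0.782), which was 0.00 without wild type replicate 1.

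Counts over the 8 genes were read against all genes tested. In saline mutants against wild type the hearts did not overlap for 3 of 8 genes, Myom1, Myom3 and Speg, all higher, against 12.8% of all genes in that direction and 21.6% in either. The unadjusted p was under 0.05 for 2 of 8, Myom1 and Myom3, against 19.9% of all genes. The median log2 fold change of the 8 was 0.21, and that of all 13632 genes 0.07. Between treated and saline mutants Tcap alone had an unadjusted p under 0.05 (limma), as did 8.29% of all genes. Its groups did not overlap, as held for 9.82% of all genes in either direction and 4.34% in the lower one. The median of the 8 was -0.10 beside -0.02 for all genes. In treated mutants against wild type limma called 0 of 8, where 0.989% of all genes were called, and Myom3 alone had an unadjusted p under 0.05 (12.5% of all genes). The groups did not overlap for 2 of 8, Myom3 and Speg, both higher, against 14.6% of all genes in either direction and 9.13% in that one. The median was 0.25 beside 0.01 for all genes. Each pair of comparisons shares 1 group of hearts.

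Levels between different scaffold genes could be ranked only in part. As deposited, Ttn was the highest of the 8 in every heart. Divided by the length of the longest transcript, in kilobases, the wild-type mean of Ttn was 38.0, below those of Tcap (1323), Myom1 (320) and Myom2 (318) and near that of Nebl (33.3). No label says whether the deposited values already include a division by length, so the order of Ttn against Tcap, Myom1 and Myom2 is unknown. On either reading its wild-type mean was above those of Obsl1 (16.2 per kilobase), Speg (12.8) and Myom3 (0.658). Per kilobase the means of Ttn and Nebl were close beside their spread (SD 25.4% and 14.9% of the wild-type mean), so their order is not settled. On either reading Myom3 was the lowest of the 8.

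The 3 hearts with Xist shared an order of levels. Ttn, Obsl1, Myom1, Myom2, Nebl and Speg were each lowest, within all 3 groups, in the heart with Xist. Of 8786 genes that averaged 10 or more, 5.94% showed this pattern. Tcap did so in 1 group and Myom3 in none. In 2 of these 3 hearts long transcripts were also lower in general: the slope of a gene's log2 deviation on its log2 transcript length was -0.147 in wild type replicate 1 and -0.093 in treated replicate 1. It was 0.03 in saline mutant replicate 3, and between -0.014 and 0.086 in the other hearts. The part of sex or of transcript length in the values above was not tested. Without the 3 hearts with Xist, the log2 fold changes in saline mutants against wild type were 0.17 for Ttn, 0.29 for Myom1 and 0.11 for Speg, and Myom3 was again the only one of the 8 called (limma adjusted p 0.0249).

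**Figure D4:**
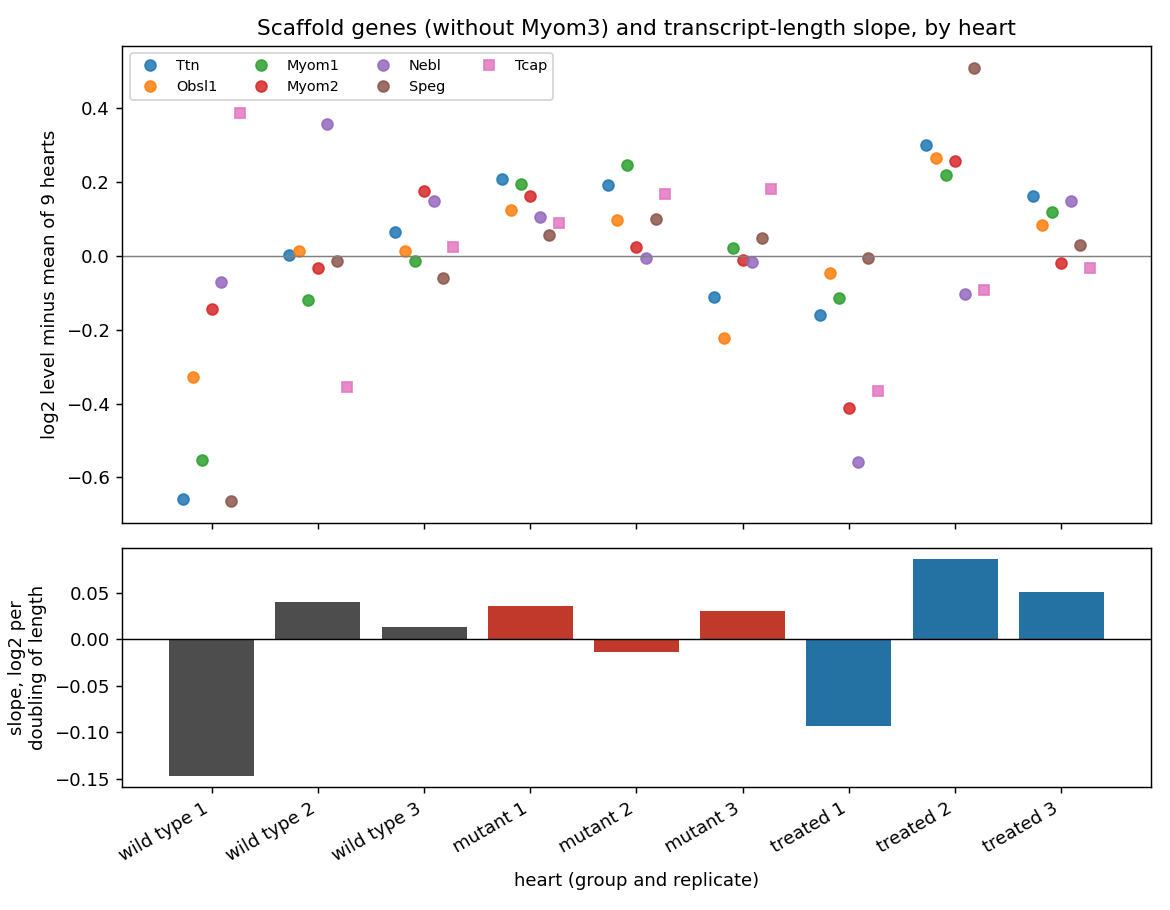
Upper panel, log2(value + 1) of 7 scaffold genes in each heart minus the mean over the 9 hearts; Myom3 is left out because its range is wider. Lower panel, slope of the log2 deviation of 8608 genes on log2 transcript length in the same hearts, lowest in wild type replicate 1 (-0.147) and treated replicate 1 (-0.093), and 0.03 in saline mutant replicate 3; in each of these 3 hearts the same 6 scaffold genes were lowest in their group.

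Related genes (Z-disc proteins, partners of the titin spring, M-band and A-band partners, splicing regulators of titin and chaperones) were taken from a list of 44, of which 40 were tested. In saline mutants 15 rose and 2 fell (4.56% and 3.15% of all genes), with a median log2 fold change of 0.33. With treatment 1 was called, Mybpc3, which rose, where 0.0147% of all genes did. Against wild type, 9 rose in treated mutants, where 0.863% of all genes did. Of these 9 calls 0 remained without wild type replicate 1 (limma), 1 and 2 without wild type replicates 2 and 3, 3 and 4 without treated replicates 1 and 2, and 7 without treated replicate 3. With a replicate block 3 remained, without the 3 hearts with Xist 3, and with no variance floor 2. Of the 17 calls in saline mutants 14 to 16 remained without any single heart. The list was drawn up with earlier results of these data known and is described, not tested.

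Of 15 tested Z-disc genes, 9 rose in saline mutants and none fell; the other 6 had log2 differences from 0.10 upward. Myot, which encodes the Z-disc protein myotilin, was 14, 9 and 18 in wild type, 261, 238 and 245 in saline mutants, and after treatment 243, 229 and 106 (log2 fold change 4.13 in saline mutants, limma adjusted p 4.68e-05). Synpo2l, an actin-binding protein of the Z-disc, went from 132 ± 5.2 in wild type to 692 ± 34.6 in saline mutants and 479 ± 172 in treated mutants (SD, n = 3). Xirp2, an actin-binding protein of intercalated discs and Z-discs, was 399 ± 68.8, 2321 ± 152 and 1176 ± 256 in the same order (SD, n = 3). All 3 saline-mutant rises were called, as were the differences of treated mutants from wild type (limma adjusted p 0.0169, 0.026 and 0.0237 for Myot, Synpo2l and Xirp2). Without wild type replicate 1 none of the latter 3 was called (limma adjusted p 0.0549, 0.0951 and 0.0684).

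Neb, the skeletal relative of nebulette, started as low as Myom3. It was 2, 5 and 4 in wild type, 32, 24 and 28 in saline mutants, and after treatment 16, 16 and 14. The 3 groups did not overlap, and treated hearts lay between the other groups. The log2 fold change was 2.68 in saline mutants (SE 0.252, limma adjusted p 0.00057) and 1.86 in treated mutants against wild type (SE 0.25, limma adjusted p 0.0265). The latter lost its call without wild type replicate 1, 2 or 3 or treated replicate 1 or 2 (limma adjusted p 0.0524, 0.0638, 0.0847, 0.0724 and 0.0837), and without the 3 hearts with Xist (0.0905), with a replicate block (0.0581) and with no variance floor (0.0921). The treated against saline mutant difference was -0.82 (limma adjusted p 0.153).

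Of 9 partners at the titin spring, 4 rose in saline mutants and 1 fell (4.56% and 3.15% of all genes). Ankrd1, a stretch-responsive ankyrin-repeat protein that binds the spring, was 411, 591 and 663 in wild type, 1811, 2695 and 3291 in saline mutants, and after treatment 2897, 1727 and 1594 (log2 fold change 2.21 in saline mutants, limma adjusted p 0.00106). Its relative Ankrd2 was listed at 0 in each wild-type heart, at 5, 3 and 5 in saline mutants and at 2 in each treated heart. Ankrd2 therefore passed the filter on mean value only through its mutant hearts. It is counted among the 4 rises here and among the rises of the related list in both mutant groups against wild type. Its log2 fold change in saline mutants depended on the constant added before taking logs: 2.39 with 1, 3.24 with 0.5 and 0.89 with 5. Fhl1 and Fhl2, LIM-domain proteins that both bind the cardiac spring, went opposite ways. Fhl1 rose from 113 ± 7.21 to 242 ± 40.4 (SD, n = 3; limma adjusted p 0.00185). Fhl2 fell from 1665 ± 162 to 792 ± 70.9 (SD, n = 3; limma adjusted p 0.00112) and was 1250 ± 184 in treated mutants (SD, n = 3).

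Of 11 tested M-band and A-band partners, Mybpc2 rose and Mybpc3 fell in saline mutants, where 4.56% of all genes rose and 3.15% fell. Mybpc2, the fast skeletal paralog of Mybpc3, was 27 ± 4.58 in wild type, 163 ± 5.86 in saline mutants and 94.7 ± 9.24 in treated mutants (SD, n = 3; limma adjusted p 4.68e-05 for saline mutants and 0.013 for treated mutants against wild type, the latter 0.0521 without wild type replicate 1). The other 9, which include the titin-binding ubiquitin ligases Trim54, Trim55 and Trim63, and the autophagy receptors Nbr1 and Sqstm1, were not called in any comparison. Of 3 chaperones of the sarcomere, Hspb7, a small heat shock protein that binds filamin, rose in saline mutants (limma adjusted p 0.00201), as did 4.56% of all genes. Unc45b and Bag3 were not called.

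**Figure D5:**
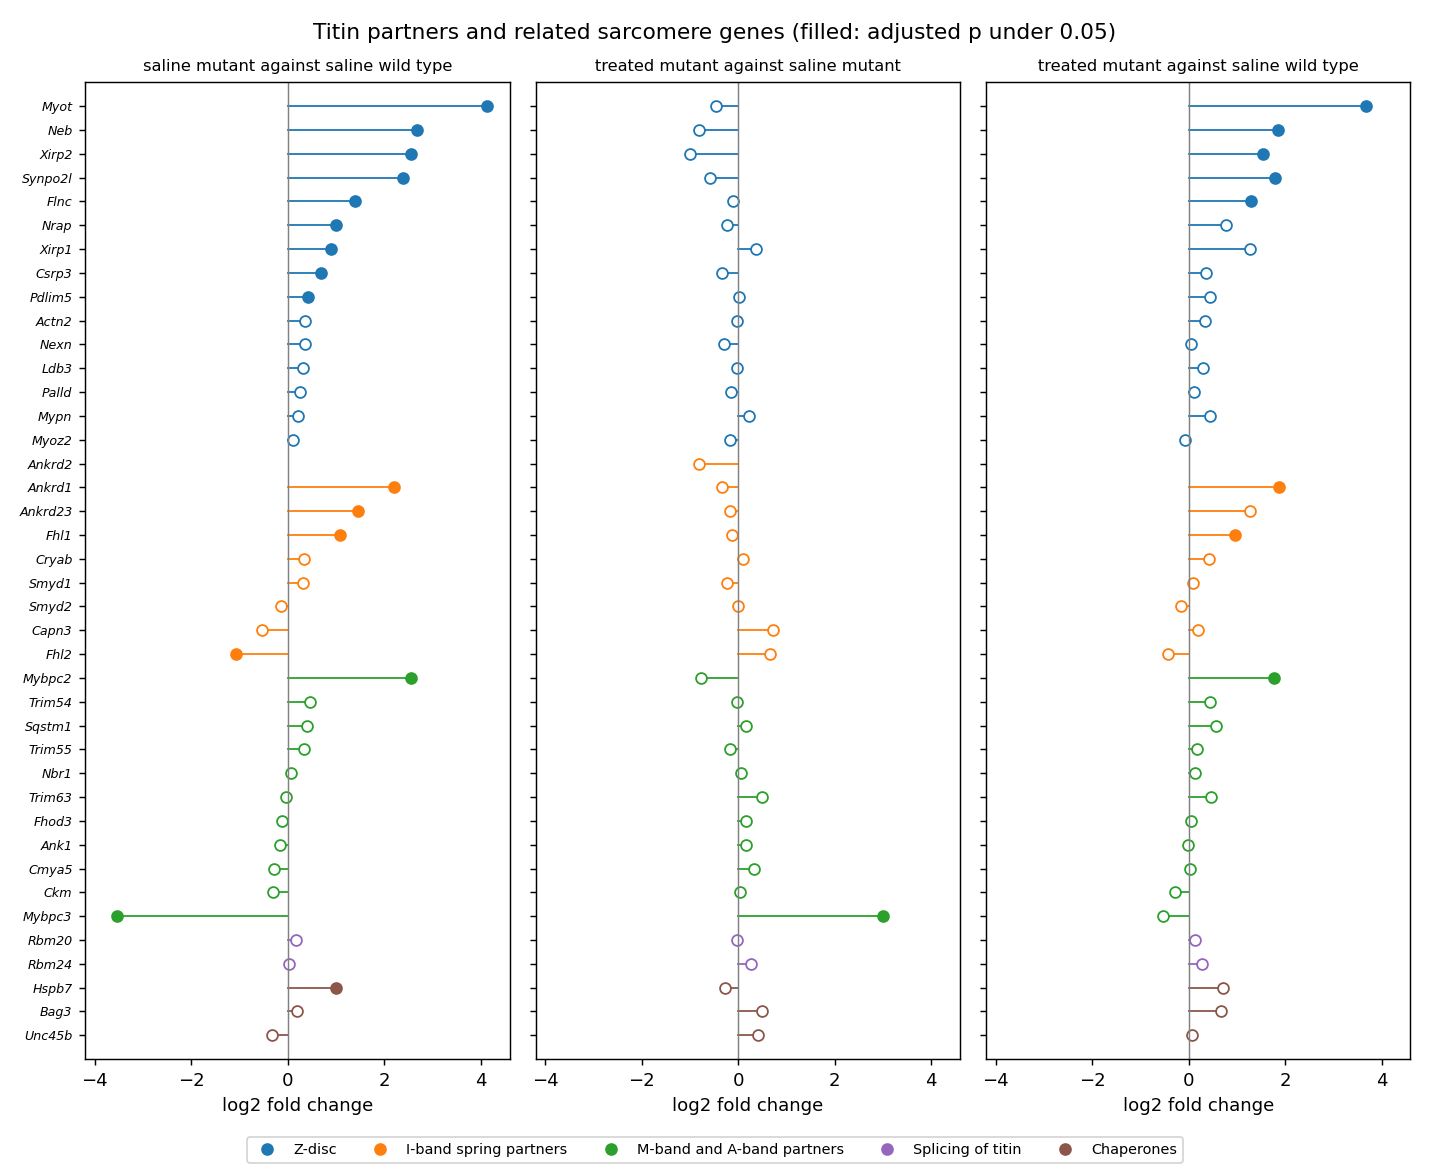
Log2 fold change of the tested related genes in the 3 comparisons (Ankrd2, listed at 0 in wild type, only in the middle panel), coloured by their place in the sarcomere; filled points have a limma adjusted p under 0.05. Z-disc and spring genes hold most filled points in saline mutants against wild type, with rises from Pdlim5 (0.42) to Myot (4.13) and a fall of Fhl2 (-1.07), and the one filled point of the middle panel is Mybpc3 (3.01). Pdlim5 was not called there when any single heart was left out.

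Profiles most like those of Ttn and Myom3 were sought among the same 8786 genes by the root-mean-square difference of log2 levels over the 9 hearts, each gene relative to its own wild-type mean. Nearest to Ttn were Kif13a (0.040), a kinesin, Ppp1r12b (0.075), a regulatory subunit of myosin phosphatase, and Myo18a (0.089), an unconventional myosin. Nearest to Myom3 were Cp (0.12), which encodes ceruloplasmin, Efhd2 (0.14), a calcium-binding protein, and Bambi (0.16), a pseudoreceptor of the transforming growth factor family. Cp had means of 92.3 in wild type, 219 in saline mutants and 186 in treated mutants.

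Markers of other heart cells were read in the same libraries. The sum of 4 fibroblast markers was 952 to 1312 in wild type, 1499 to 2277 in saline mutants and 1111 to 1379 in treated mutants. That of 4 macrophage markers was 124 to 171, 140 to 248 and 98 to 172, and that of 4 endothelial markers 791 to 1137, 735 to 835 and 744 to 889. Blood markers, 5 in all, summed to 104 to 313, 69 to 85 and 140 to 158. Of 5 atrial markers, 2 were analysed, and they summed to 43 to 62, 359 to 1494 and 158 to 258. Nearly all of this was Nppa, also known from stressed ventricle, with means of 49.3, 901 and 199. Myl4 had means of 1, 3.67 and 2.33. In saline mutants against wild type Nppa, Myl4 and the fibroblast marker Col1a1 were called higher, where 4.56% of all genes were. The blood markers Hba-a2 and Alas2 were called lower (3.15% of all genes), and no macrophage or endothelial marker was called. Against wild type Nppa was also called higher in treated mutants. None of these markers was at 0 throughout a group, and their part in the scaffold values was not tested. For 2 scaffold genes an annotated protein-coding gene overlaps on the other strand, Myl12a at Myom1 and Tmem198 at Obsl1, and whether counting used strand is not given in the sources used here.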

How the data were processed

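The authors deposited 1 table per pair of groups. The submitters' processing notes name HISAT2, HTSeq, DESeq2 and mm10, with no role or order. The deposited values per library are treated as a score: whole numbers scaled to a common total, rounded by the authors, with length scaling not stated. The mean signal, the log2 fold changes, their standard errors, the test statistic (a score) and the p-values are the authors' deposited columns, per the file headers. Per the values, the column named as the adjusted p-value is unadjusted.

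Each pair of groups was fitted alone on log2(value + 1) in limma 3.58.1 (R 4.3.3), for genes with a mean of at least 1 over the 6 libraries. Prior variances followed a trend, residual variances had a floor at the rounding variance, and prior degrees of freedom came from genes with a mean of at least 30. The fit was tested on simulated data in which genes of the same level had the same spread and no library was shifted. Differences between hearts like those described here were not simulated, so no conclusion is drawn from that test. Positions and lengths are from GENCODE M21 (GRCm38); 95.2% of symbols had a length.

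The 8 genes, the lists, the fit and the alternatives were chosen with earlier results of these data known. Named genes were the 8, Mybpc3, the 10 called related genes with the smallest p-values, and the 3 profiles nearest to Ttn and to the scaffold gene with the smallest p-value. Neb, the relative of Nebl, falls within this rule but was also picked after its values were seen. Genes of the list outside this rule were named after their values were seen.
1 gene of the related list is not reported here.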

Additional observations from a re-analysis of the deposited data

How the results depend on the processing

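For the 8 scaffold genes there were 24 results and 429 alternative values, of which 408 kept their direction and side of the threshold, 0 lost a call, 3 gained one and 18 changed sign. All 3 gained calls were Myom3 in treated mutants against wild type, so that 1 of the 8 was called in place of 0 when the prior came from all genes, when all 3 groups shared 1 fit, or without treated replicate 3. Leaving out single hearts gave 0 to 1 there. With a filter at a mean of 10 the count in saline mutants was 0 in place of 1, because Myom3 was then not tested.

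The sign changes were all in differences that were not called. Myom2 in saline mutants against wild type was -0.014 with median-of-ratios and -0.037 with upper-quartile factors. Without the 3 hearts with Xist, Myom2 was 0.027 in treated against saline mutants and 0.048 in treated mutants against wild type, and Tcap was 0.10 in the latter. Leaving out single hearts gave these ranges in saline mutants against wild type: Myom2 -0.013 to 0.15, Obsl1 -0.013 to 0.21 and Tcap -0.059 to 0.31. In treated against saline mutants they were -0.099 to 0.14 for Ttn, -0.010 to 0.17 for Obsl1, -0.15 to 0.016 for Myom1, -0.27 to 0.061 for Myom2 and -0.055 to 0.20 for Speg. In treated mutants against wild type they were -0.21 to 0.12 for Myom2 and -0.37 to 0.0021 for Tcap.

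Counts over all genes moved more. In saline mutants against wild type 1051 genes were called, 580 without the hearts with Xist, and 528 to 1037 without single hearts (628, 643 and 528 without wild type replicates 1 and 3 and saline mutant replicate 2). In treated against saline mutants the count was 4. It was 10 with either median-of-ratios or upper-quartile factors, 7 with a pseudocount of 5, 2 with no filter, 32 with no variance floor, 14 with the prior from all genes, 13 with all groups in 1 fit, 2 without the hearts with Xist, and 2 to 8 without single hearts. In treated mutants against wild type the count was 134. It was 77 with no floor, 243 with the prior from all genes, 239 with all groups in 1 fit, 9 without the hearts with Xist, and 1 to 139 without single hearts (1, 8 and 12 without wild type replicates 1, 2 and 3; 25 and 28 without treated replicates 1 and 2). The cause was not tested.

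Groups share replicate numbers, and no label says whether these pair the hearts. The correlation of same-numbered hearts was -0.37 to -0.10, -0.070 to 0.20 and 0.027 to 0.57 over 8786 genes in the 3 comparisons. That of differently numbered hearts was -0.066 to 0.28, -0.26 to 0.067 and -0.39 to 0.34 in the same order. These ranges do not settle whether hearts were paired, and the numbers were not taken to pair them. With a replicate block 824, 35 and 35 genes were called. Myom3 in saline mutants was called under the block (limma adjusted p 0.00499), and no other scaffold gene was in any comparison. Rounding to whole numbers limits Myom3, and unknown depth leaves counting error unstated.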
